A study of Homo sapiens with 6 samples.

Results

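Transcript levels of 8 genes of the hypoblast and endoderm were followed: GATA4, GATA6, SOX17, FOXA2, EOMES, PDGFRA, NID2 and APOA1. They are the rows of the deposited count table that carry these gene names, 9 Ensembl identifiers of 61196, or 8 names of 48183 once identifiers with the same name were summed. All 8 had counts and all 8 passed the filter on low counts, which left 26497 genes to test. The study converted primed human embryonic stem cells, which resemble the epiblast after implantation, to the naive state, which resembles the inner cell mass before it. RNA was measured in bulk in 6 libraries, of which 4 are naive and 2 primed.

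All 6 libraries came from cells that carry the EOS-GFP reporter, integrated with a piggyBac vector, which reports activity of the distal enhancer of POU5F1 (OCT4). The labels name the line H1, whereas the study's methods describe H9 cells, and both are established human embryonic stem cell lines. Naive cells were made in 3 ways. AICAR, an activator of the kinase AMPK, was given in an induction of 14 days and, at a lower concentration, for a further week after passage, and the cells had 14 or 15 passages after induction in the libraries AICAR 1 and AICAR 2, where which library had which passage is not given. Valproic acid (VPA), a histone deacetylase inhibitor, was used in an induction of 9 days that was followed by 12 passages. A constitutively active form of the kinase p38 (CA-p38) was switched on with doxycycline in an induction of 7 days that was followed by 12 passages, in a line of mCherry-sorted cells that holds this Tet-ON transgene. The primed EOS library is the untreated parent of the AICAR and VPA cells. The primed CA-p38 library is the line with the transgene, labelled untreated. By the study's methods, naive cells were kept on mouse embryonic fibroblasts in PXGL medium and were sorted for CD75 and SUSD2. The study also describes a later move of the CA-p38 cells to culture without feeders, and which of these held for the CA-p38 library is not given in the sources used here. In contrast, primed cells grew without feeders on Matrigel in StemFit AK02N, and no sort at RNA collection is described for them. State, medium, feeders and the sort for CD75 and SUSD2 thus cannot be told apart. The CA-p38 line had been sorted for mCherry after doxycycline when it was made. Nothing in the sources says that the libraries of a group are independent cultures, and the p-values measure only the spread between these libraries.

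The hypoblast, or primitive endoderm, is the layer that separates from the epiblast in the blastocyst and later lines the yolk sac. GATA6, GATA4, SOX17 and FOXA2 are transcription factors of this lineage, PDGFRA is a receptor carried on its surface, its cells lay down a basement membrane that includes the linker protein NID2, and its visceral part secretes apolipoproteins such as APOA1. SOX17 and FOXA2 also mark the definitive endoderm that forms at gastrulation, where the T-box factor EOMES acts upstream of them.

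Each library held between 46823699 and 54277064 counts. Levels are given as counts and as CPM, the usual per-library scaling of counts, here with effective library sizes from TMM (the trimmed mean of M values). A limit of 3 counts stood for 0.0552 to 0.0613 CPM on this scale. The cells matched their labels: all 7 naive markers, among them SUSD2, which the sort used, were higher in naive than in primed libraries (summed level 3058 to 3550 CPM against 8.0 to 10.9 CPM) and all 5 primed markers were lower (30.9 to 42.5 CPM against 2372 to 2904 CPM). POU5F1, a core pluripotency factor, lay between 1473 and 1712 CPM in every library, whereas none of the 8 genes was above 21.4 CPM in any.

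In naive against primed libraries, GATA4 was the only one of the 8 genes that rose, 6 fell (SOX17, FOXA2, EOMES, NID2, APOA1 and PDGFRA), and GATA6 did not pass the test. Under other settings and with single libraries left out, SOX17, FOXA2 and NID2 kept the call throughout, while EOMES, APOA1 and PDGFRA did not. Across all genes tested, 26.01% rose and 27.04% fell at an adjusted p under 0.05, with edgeR's quasi-likelihood test and Benjamini-Hochberg adjustment over the 26497 genes. The median log2 fold change was -2.03 for the 8 genes and 0.11 for all genes. Every naive library lay above both primed libraries for GATA4 and below both for the 6 genes that fell, while GATA6 overlapped. The same separation was seen upwards in 32.9% and downwards in 32.1% of all genes. For EOMES the separation rested on the scaling, since naive CA-p38 and primed EOS had 60 counts each (1.19 and 1.21 CPM). In bulk RNA, fewer cells that carry a transcript and less of it per cell cannot be told apart. The plot of CPM by library shows the 8 genes.

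**Figure D1:**
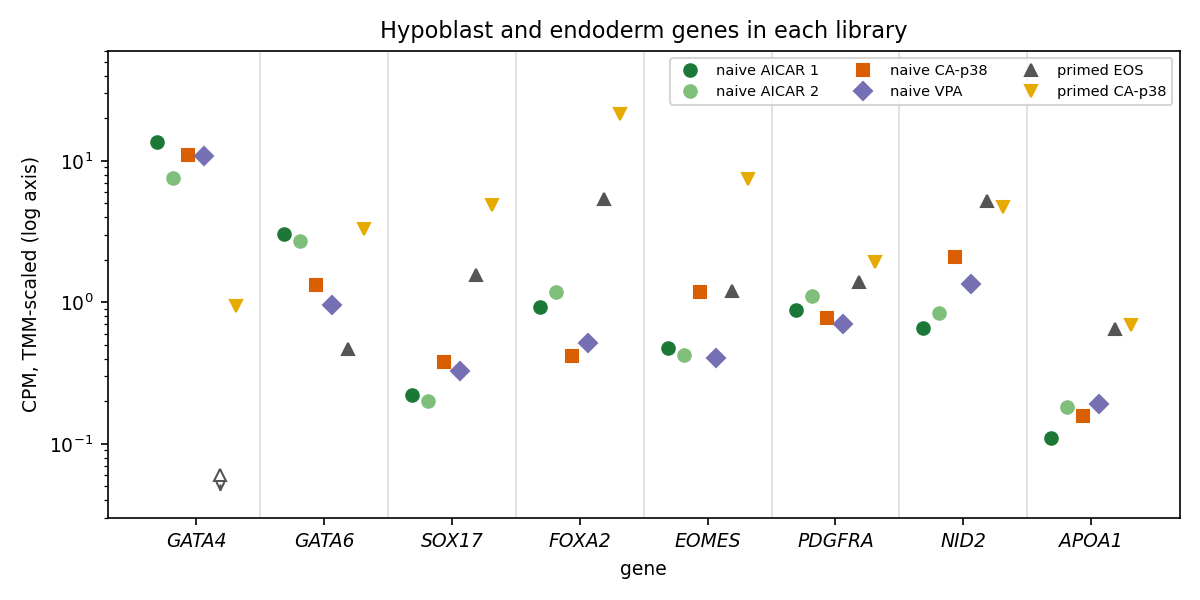
CPM (TMM-scaled, log axis) of the 8 genes in each of the 6 libraries, 1 point per library. Circles, squares and diamonds are naive libraries and triangles primed libraries, and the open triangle with an arrow marks the count of 0 for GATA4 in primed EOS at the level of 3 counts. GATA4 lies at 7.53 to 13.5 CPM in naive and at most at 0.941 CPM in primed libraries, and the primed CA-p38 library is the highest of all for GATA6, SOX17, FOXA2, EOMES, PDGFRA and APOA1.

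GATA4, a zinc-finger factor of primitive endoderm and heart, had 733, 374, 557 and 567 counts in the AICAR 1, AICAR 2, CA-p38 and VPA libraries. Primed EOS had a count of 0, which allows up to 0.0606 CPM, and primed CA-p38 had 46 counts. The 4 naive libraries were thus all high, and the 2 primed libraries differed from each other. The mean was 10.7 ± 2.45 CPM in naive libraries (SD, n = 4) and 0.470 ± 0.665 CPM in primed libraries (SD, n = 2), a log2 fold change of 4.51 (SE 0.74, adjusted p = 0.000202). Without primed EOS the log2 fold change was 3.49. Without primed CA-p38 only a count of 0 was left on the primed side, and GATA4 was at least 223-fold higher than 3 counts of primed EOS in AICAR 1, 124-fold in AICAR 2 and 179-fold in VPA.

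The name GATA4 stands for 2 identifiers. ENSG00000136574 lies on chromosome 8 from 11676959 to 11760002 (GRCh38, plus strand), and ENSG00000285109 is not on a chromosome of the GENCODE release 44 annotation. The first held 347, 190, 274, 258, 0 and 21 counts in AICAR 1, AICAR 2, CA-p38, VPA, primed EOS and primed CA-p38, and the second 386, 184, 283, 309, 0 and 25 counts. The copies were thus close to each other in every library, and fitted apart they gave log2 fold changes of 4.56 (SE 0.72) and 4.43 (SE 0.74). Reads can match both of these near-identical copies, so the fits are not 2 independent measures of GATA4.

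GATA6 (chromosome 18, 22169589 to 22202528, plus strand) acts early in the choice between hypoblast and epiblast. It had 166 and 135 counts in the AICAR libraries but 67 in CA-p38 and 50 in VPA. Primed EOS had 23 counts and primed CA-p38 had 161. Both AICAR libraries and primed CA-p38 were high, at 2.72 to 3.29 CPM, and the other three lay between 0.465 and 1.33 CPM. The log2 fold change in naive against primed libraries was 0.10 (SE 0.63, adjusted p = 0.904), and its direction depended on single libraries. It was -0.19 without AICAR 1, -0.07 without AICAR 2 and -0.72 without primed EOS, and it passed the test at 2.12 (adjusted p = 0.0335) without primed CA-p38. Exons of GATA6 overlap those of the antisense transcript GATA6-AS1, which had 17 and 4 counts in AICAR 1 and AICAR 2, 3 in primed EOS and 0 in the other libraries, and whether the counting used strand is not given in the sources used here.

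SOX17 (chromosome 8, 54457935 to 54460892, plus strand), an HMG-box factor of primitive and definitive endoderm, had 12, 10, 19 and 17 counts in AICAR 1, AICAR 2, CA-p38 and VPA. Primed EOS had 77 counts and primed CA-p38 had 238. No naive library came near a primed one, and SOX17 fell by 3.50 on the log2 scale (SE 0.47, adjusted p = 3.57e-05). The fall was 4.12 without primed EOS and 2.45 without primed CA-p38.

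FOXA2 (chromosome 20, 22580998 to 22585455, minus strand), a forkhead factor of endoderm and of the node and floor plate, had 50, 59, 21 and 27 counts in AICAR 1, AICAR 2, CA-p38 and VPA. Primed EOS had 265 counts and primed CA-p38 had 1048, the highest count of any of the 8 genes in any library. The mean was 0.760 ± 0.359 CPM in naive libraries (SD, n = 4) and 13.4 ± 11.4 CPM in primed libraries (SD, n = 2), and FOXA2 fell by 4.14 on the log2 scale (SE 0.49, adjusted p = 1.14e-05). The fall was 4.83 without primed EOS and 2.81 without primed CA-p38. LINC00261, the long noncoding RNA beside FOXA2, fell too, from 1.21 CPM (primed EOS) and 5.26 CPM (primed CA-p38) to 0.202 to 0.822 CPM in naive libraries (log2 fold change -2.94, SE 0.58, adjusted p = 0.000914), a call that was lost without primed CA-p38 (-1.52, adjusted p = 0.115).

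EOMES (chromosome 3, 27715949 to 27722711, minus strand) had 26, 21, 60 and 21 counts in AICAR 1, AICAR 2, CA-p38 and VPA. Primed EOS had 60 counts and primed CA-p38 had 363. The naive CA-p38 library (1.19 CPM) was close to primed EOS (1.21 CPM), and primed CA-p38 stood apart at 7.42 CPM. EOMES fell by 2.79 on the log2 scale (SE 0.59, adjusted p = 0.00153), and by 1.99 with the parental line as a term of the model. The call rested on 1 library, since without primed CA-p38 the log2 fold change was -0.95 (adjusted p = 0.283), against -3.58 without primed EOS.

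PDGFRA (chromosome 4, 54229280 to 54298245, plus strand), the receptor for PDGF-AA, had 48, 55, 39 and 37 counts in AICAR 1, AICAR 2, CA-p38 and VPA, while primed EOS had 69 and primed CA-p38 had 95. The groups did not overlap, at 0.707 to 1.11 CPM in naive and 1.39 and 1.94 CPM in the primed ones. PDGFRA fell by 0.94 on the log2 scale (SE 0.36, adjusted p = 0.0447), the smallest change of the 7 genes that passed. The call did not hold when 1 library was left out, with adjusted p = 0.0658 without AICAR 1, 0.0848 without CA-p38, 0.0753 without VPA, 0.0602 without primed EOS and 0.31 without primed CA-p38, and it held without AICAR 2. It was also lost with the parental line as a term (adjusted p = 0.0848), with library totals, DESeq2 and limma-voom (adjusted p = 0.0753, 0.0543 and 0.0606), and when genes with at least 1 count in any library were kept (adjusted p = 0.0668). The limma-voom fit was itself scaled by library totals. PDGFRA also shares exons in the same orientation with ENSG00000282278, a read-through gene that had more counts than PDGFRA in every library (151 to 261), so how the counting split reads between them makes the PDGFRA counts uncertain.

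NID2 (chromosome 14, 52004809 to 52069059, minus strand), which links laminin and collagen IV in basement membranes, had 36, 42, 105 and 70 counts in AICAR 1, AICAR 2, CA-p38 and VPA, while primed EOS had 256 and primed CA-p38 had 232. NID2 fell by 2.01 on the log2 scale (SE 0.39, adjusted p = 0.000734), and the primed libraries gave nearly the same level (5.17 and 4.74 CPM). Within the naive group AICAR 1 was the lowest (0.663 CPM) and CA-p38 the highest (2.08 CPM). Exons of NID2 overlap exons of RTRAF on the opposite strand, which had 7856 to 10076 counts in naive and 15889 and 17142 in primed libraries, and a share of its reads in the NID2 counts was not tested.

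APOA1 (chromosome 11, 116835751 to 116837622, minus strand), the main protein of high-density lipoprotein, was the scarcest of the 8 genes, with 6, 9, 8 and 10 counts in AICAR 1, AICAR 2, CA-p38 and VPA and 32 and 34 counts in primed EOS and primed CA-p38. The libraries of each group were close to each other. APOA1 fell by 2.05 on the log2 scale (SE 0.59, adjusted p = 0.0104), and the call was lost without primed EOS (-2.11, adjusted p = 0.0675) and without primed CA-p38 (-1.99, adjusted p = 0.0947).

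The stretch just before the start of transcription is shown for GATA6, which overlapped between the groups, and for PDGFRA and NID2, which fell, as the 250 bases given by RefSeq (GRCh38.p14). RefSeq starts were found for EOMES, PDGFRA (2 starts), NID2 and GATA6, and not for GATA4, SOX17, FOXA2 and APOA1. The GATA6 stretch lies at chr18:22169339-22169588 on the plus strand, partly over an exon of GATA6-AS1, the PDGFRA stretch at chr4:54233710-54233959 on the plus strand, inside an intron of the longer transcripts, and the NID2 stretch at chr14:52069060-52069309 on the minus strand. Capitals mark a GATA motif.
GATA6: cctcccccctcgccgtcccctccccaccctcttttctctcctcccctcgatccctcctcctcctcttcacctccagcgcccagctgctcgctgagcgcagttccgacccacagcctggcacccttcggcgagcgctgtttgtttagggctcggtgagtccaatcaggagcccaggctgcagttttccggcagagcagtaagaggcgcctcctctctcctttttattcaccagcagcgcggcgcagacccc
PDGFRA: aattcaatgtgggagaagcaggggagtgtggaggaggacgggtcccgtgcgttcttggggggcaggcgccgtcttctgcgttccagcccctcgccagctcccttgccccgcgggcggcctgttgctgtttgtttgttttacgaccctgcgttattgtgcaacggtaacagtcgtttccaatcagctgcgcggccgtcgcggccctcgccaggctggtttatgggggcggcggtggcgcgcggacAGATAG
NID2: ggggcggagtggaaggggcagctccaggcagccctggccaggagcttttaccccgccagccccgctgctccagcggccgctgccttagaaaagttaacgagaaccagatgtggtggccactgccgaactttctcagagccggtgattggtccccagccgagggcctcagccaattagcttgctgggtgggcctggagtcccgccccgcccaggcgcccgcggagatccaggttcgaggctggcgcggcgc
A GATA motif, searched as AGATAA or TGATAA or AGATAG or TGATAG on both strands, was in 1 of the 5 stretches, at the end of the PDGFRA stretch shown, and in 22.3% of 35116 promoters of this length. The T-box motif AGGTGT was in 0 of 5 (9.57% of all), and the forkhead motif, searched as TGTTTAC or TGTTTGC, was in 0 of 5 (6.09% of all). CpG dinucleotides numbered 16 in the GATA6, 25 in the PDGFRA and 18 in the NID2 stretch shown, against a median of 11 over all promoters. The other PDGFRA stretch, at chr4:54229043-54229292, held 8, and the EOMES stretch held 19.

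Markers of fibroblasts were counted beside these genes because feeder cells are described for naive cultures. The feeders are mouse cells and reads were mapped to human sequences, and how far these counts report feeder RNA was not tested. Of 9 tested, 1 rose and 3 fell in naive libraries, while 26.01% of all genes rose and 27.04% fell. FAP was at 0 in all libraries but AICAR 2. The summed level of the 10 markers was 58.7 to 97.5 CPM in naive and 182 and 201 CPM in primed libraries. Among naive libraries it was highest in CA-p38, the library that was also highest for NID2 and EOMES. COL1A1 reached 27.99 CPM there against 9.53 to 11.6 CPM in the other naive libraries, and COL3A1 16.6 CPM against 3.57 to 7.05 CPM. LUM had 59 counts in CA-p38, 17 in AICAR 1 and 0 in AICAR 2 and VPA, and DCN was highest in CA-p38 by a small margin (1.21 CPM against 0.764 to 1.17 CPM). The other markers were not highest there: COL1A2 was higher in AICAR 2 (30.5 CPM against 25.7 CPM in CA-p38), as were POSTN and FAP, TWIST1 and PRRX1 were highest in AICAR 1, and COL6A3 was lowest in CA-p38 (4.41 CPM against 6.12 to 7.47 CPM). The part of feeder RNA in the NID2 and EOMES values was not tested.

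**Figure D2:**
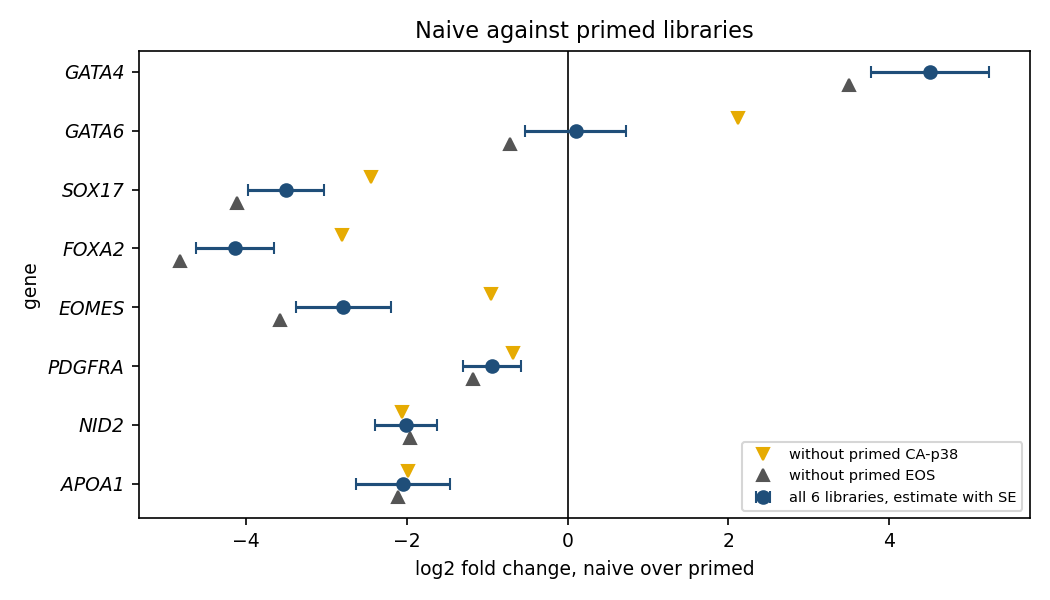
Log2 fold change of naive over primed libraries for the 8 genes. Circles with bars are the estimates from all 6 libraries with their standard errors, and triangles are the estimates without primed EOS or without primed CA-p38 (not drawn for GATA4 without primed CA-p38, where the primed count is 0). EOMES moves from -3.58 to -0.95 and GATA6 from -0.72 to 2.12 with the primed library used, while NID2 and APOA1 hardly move.

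Levels can be compared between genes only per length of transcript. Per kb of exon (GENCODE release 44), GATA4 stood first in naive cells at 2.41 ± 0.551 CPM per kb (SD, n = 4), and its lowest naive value (1.69) lay above the highest of GATA6 (0.804), the next gene. GATA6 followed at 0.530 ± 0.271, FOXA2 at 0.279 ± 0.132, NID2 at 0.198 ± 0.102, EOMES at 0.170 ± 0.103, APOA1 at 0.146 ± 0.0328, SOX17 at 0.120 ± 0.0356 and PDGFRA at 0.0909 ± 0.0184 CPM per kb, and neighbours from GATA6 downwards overlapped. In primed EOS the order was FOXA2 (1.97 CPM per kb), NID2 (0.832), SOX17 (0.663), APOA1 (0.590), EOMES (0.332), PDGFRA (0.146), GATA6 (0.122) and GATA4 (0). In primed CA-p38 it was FOXA2 (7.88 CPM per kb), SOX17 (2.07), EOMES (2.03), GATA6 (0.867), NID2 (0.763), APOA1 (0.634), GATA4 (0.212) and PDGFRA (0.203). FOXA2 thus led in both primed libraries and GATA4 in each naive library.

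The primed libraries differed from each other by more than 2-fold in the 5 transcription factors and by less in PDGFRA, NID2 and APOA1. With 1 library a side there is no replicate and no test, and folds carry a 95% exact binomial (Clopper-Pearson) interval that covers counting error only. In primed CA-p38 over primed EOS, 5 of the 8 genes were at least 2-fold higher with an interval above 1 (GATA4, GATA6, SOX17, FOXA2 and EOMES), and none was 2-fold lower. Of all genes tested, 3.40% were higher and 6.60% lower by the same rule, and the median log2 ratio was 1.82 for the 8 genes and 0.02 for all genes. GATA6 was 6.95-fold higher (4.56 to 11.5), EOMES 6.08-fold (4.65 to 8.19), FOXA2 4.0-fold (3.49 to 4.60) and SOX17 3.11-fold (2.41 to 4.10). GATA4 was at least 15.5-fold higher, set against 3 counts in primed EOS. PDGFRA (1.39-fold, 1.01 to 1.93), APOA1 (1.07-fold, 0.644 to 1.80) and NID2 (0.917-fold, 0.764 to 1.10) stayed within 2-fold.

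Other genes of mesendoderm and endoderm were higher in primed CA-p38 as well. Of 12 mesendoderm and definitive endoderm genes, 5 were at least 2-fold higher and none was lower. By the same rule, 3.40% of all genes tested were higher and 6.60% lower, and the list counts that follow can be read beside these shares. The nodal antagonist CER1 had 698 against 207 counts (3.41-fold, 2.92 to 4.0), the signalling factor FGF17 166 against 43 counts (3.87-fold, 2.78 to 5.60), the homeobox factors MIXL1 266 against 99 counts (2.71-fold, 2.15 to 3.46) and GSC 38 against 15 counts (2.51-fold, 1.38 to 5.02), and the T-box factor TBXT 35 against 3 counts. Of 9 further endoderm transcription factors, FOXA1 (4.44-fold, 2.62 to 8.39) and PRDM1 (5.49-fold, 3.56 to 9.13) were higher, and of 12 transport and secreted proteins AFP (4.57-fold, 3.50 to 6.13), APOB (3.21-fold, 2.64 to 3.95) and APOA2 (21 counts against 1) were higher and APOM and CUBN lower. LINC00261 was higher too (4.31-fold, 3.26 to 5.84), as were the paralogs GATA3 (71 against 8 counts), GATA2 (22 against 0 counts) and TBR1 (21 against 8 counts). None of 11 basement membrane genes passed 2-fold in either direction. POU5F1 differed little (1712 CPM in primed EOS against 1646 CPM in primed CA-p38), and none of the 5 primed markers passed 2-fold. Of 5 mesoderm markers tested none was higher in primed CA-p38, and HAND1 was lower (0 against 12 counts). Of 7 trophectoderm markers tested GATA2 and GATA3 were higher and CGA lower. Among fibroblast markers PRRX1 was higher and COL3A1 lower. The naive markers DPPA5 and DNMT3L were lower, and the PDGF ligand PDGFC was higher. No sort at RNA collection is described for the primed cells. The CA-p38 line had been sorted for mCherry after doxycycline when it was made, a step not described for the EOS line. A part of differentiating cells in the primed CA-p38 library was not tested.

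**Figure D3:**
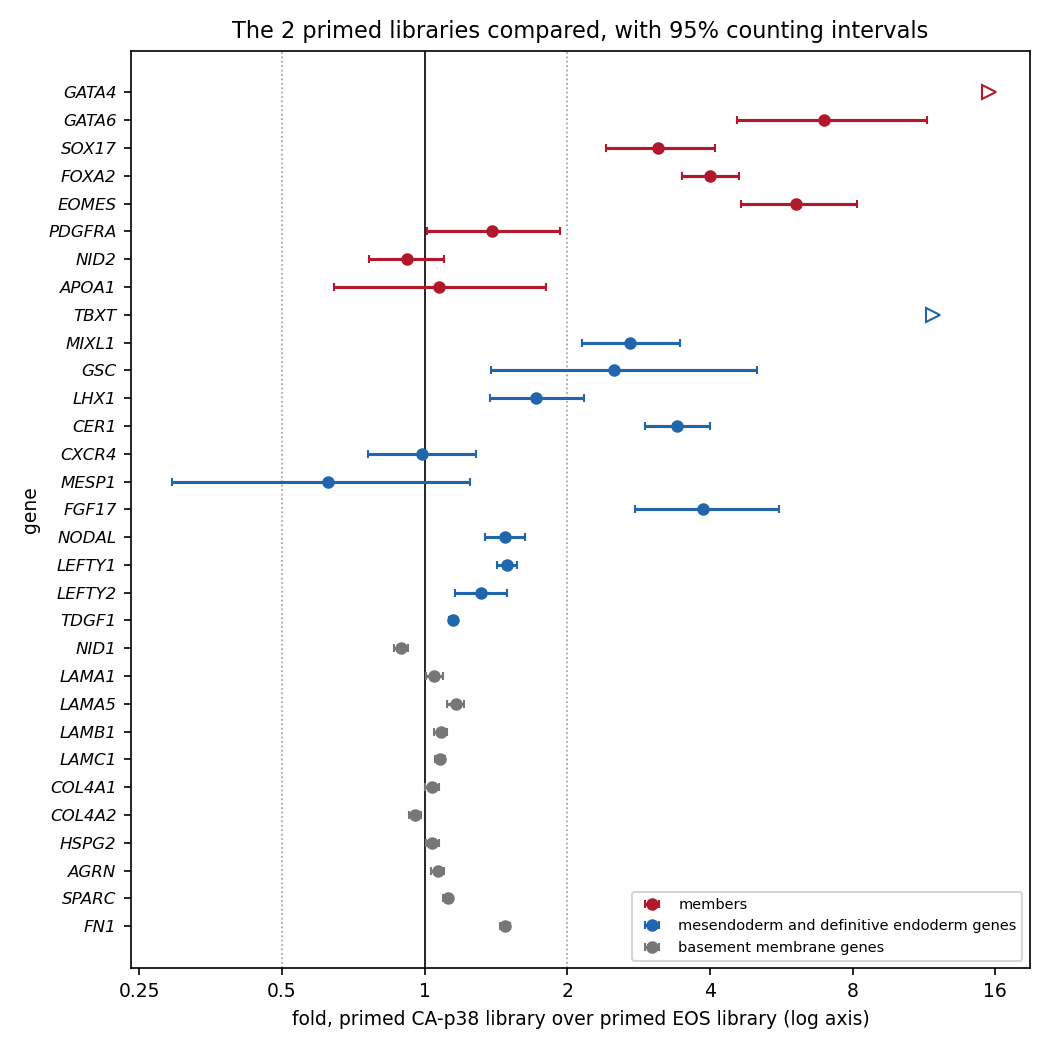
Fold of the primed CA-p38 over the primed EOS library (log axis) for the 8 genes, 12 mesendoderm and definitive endoderm genes and 11 basement membrane genes, with 95% counting intervals. Open arrowheads are lower bounds against 3 counts, the solid line marks 1 and dotted lines mark 2-fold. The 5 transcription factors at the top lie right of 2-fold, whereas PDGFRA, NID2, APOA1 and the basement membrane genes lie near 1.

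Each naive library was next set against the primed library of its own line, where AICAR 1, AICAR 2 and VPA share primed EOS. In the EOS line GATA6 was higher in all 3 naive libraries, by 6.46-fold (4.24 to 10.7) in AICAR 1, 5.75-fold (3.74 to 9.54) in AICAR 2 and 2.03-fold (1.23 to 3.53) in VPA. In the CA-p38 line it was lower, at 0.405-fold (0.298 to 0.539). FOXA2 was lower in every naive library, 5.77-fold in AICAR 1, 4.48-fold in AICAR 2, 10.2-fold in VPA and 50.4-fold in CA-p38. EOMES was 2.50-fold, 2.82-fold and 2.97-fold lower in AICAR 1, AICAR 2 and VPA and 6.21-fold lower in CA-p38. SOX17 was 6.79-fold, 7.41-fold and 4.68-fold lower in AICAR 1, AICAR 2 and VPA and 12.6-fold lower in CA-p38, and GATA4 was 11.6-fold higher (8.67 to 16.2) in CA-p38. NID2 had its smallest difference in the CA-p38 line, 7.71-fold, 6.06-fold and 3.85-fold lower in AICAR 1, AICAR 2 and VPA and 2.28-fold lower in CA-p38. PDGFRA was 1.26-fold to 2.50-fold lower, and its interval held 1 in AICAR 2 (0.547 to 1.148). APOA1 was 3.27-fold to 5.47-fold lower.

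The difference between lines was tested with an interaction of line and state. In it the CA-p38 line has 1 library per state and is taken to vary like the naive EOS libraries. The naive library of the CA-p38 line is also the only one induced by CA-p38, so line and induction method cannot be told apart. With edgeR, none of the 8 genes passed at an adjusted p under 0.05, against 0.00377% of all genes, which is 1 gene, and 3 passed at an unadjusted p under 0.05, against 3.22% of all genes. These were GATA4 (adjusted p = 0.316), FOXA2 (difference of log2 fold changes -3.07, SE 0.76, adjusted p = 0.9999) and GATA6 (-3.57, SE 1.07, adjusted p = 0.9999). For NID2 the difference was 1.26 (SE 0.75), for SOX17 -1.05 (SE 0.88), for EOMES -1.17 (SE 0.72), for PDGFRA -0.70 (SE 0.87) and for APOA1 -0.12 (SE 1.47), each within 2 SE of 0.

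**Figure D4:**
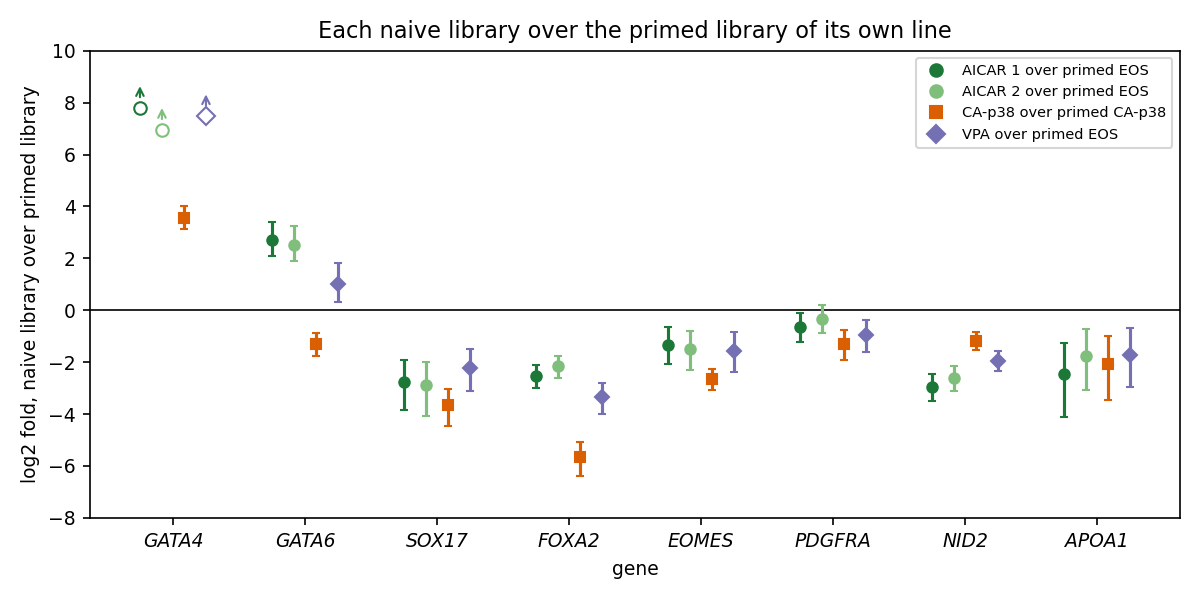
Log2 fold of each naive library over the primed library of its own line for the 8 genes, with 95% counting intervals. Open symbols with arrows are lower bounds for GATA4 against 3 counts of primed EOS. GATA6 is above 0 in the 3 EOS-line libraries and below 0 in the CA-p38 line, while SOX17, FOXA2, EOMES, NID2 and APOA1 are below 0 in all 4.

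Paralogs of the factors were read next, to see whether a family moved as 1 unit. Of the 6 GATA genes, GATA4, GATA5 and GATA2 rose in naive cells, GATA6 and GATA3 did not pass, and GATA1 was too low to test. GATA5, another endodermal GATA factor, had 297, 263, 291 and 480 counts in AICAR 1, AICAR 2, CA-p38 and VPA and 0 in both primed libraries, at least 105-fold higher on average against 3 counts per primed library (adjusted p = 1.55e-07). GATA2, known from blood and trophoblast, had 204 to 289 counts in naive libraries and, in the primed ones, 0 and 22 (log2 fold change 4.45, SE 0.71, adjusted p = 0.000162). GATA2 and GATA4 thus share both the high naive level and the few counts in primed CA-p38, and without primed EOS GATA2 was at 3.44. GATA3, a trophoblast factor, had 133 and 115 counts in AICAR 1 and AICAR 2, 36 in CA-p38, 20 in VPA, and 8 and 71 in the primed libraries, the same order as GATA6 for the naive libraries, and its log2 fold change of 0.86 (SE 0.81) had an adjusted p of 0.393.

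In the SOXF family SOX18, a factor of endothelium, rose (2.05 to 4.09 CPM against 0.0606 and 0.204 CPM, log2 fold change 4.45, SE 0.54, adjusted p = 1.39e-05) while SOX17 fell. SOX7, an endodermal SOXF gene, hardly differed between naive (1.13 to 1.33 CPM) and primed libraries (1.03 and 1.41 CPM), with a log2 fold change of 0.04 (SE 0.35, adjusted p = 0.929). In the FOXA family all 3 genes fell, FOXA3 by a margin that depended on the fit. FOXA1 had 1 to 3 counts in naive libraries, 16 in primed EOS, and 72 in its CA-p38 counterpart (log2 fold change -4.83, SE 0.83, adjusted p = 0.000299), a call that was lost without primed CA-p38 (-3.36, adjusted p = 0.08). FOXA3 fell by 0.51 on the log2 scale (adjusted p = 0.0209), from 15.5 and 12.9 CPM to 9.50 to 10.5 CPM, which did not pass without primed EOS (-0.38, adjusted p = 0.198), with library totals (-0.42, adjusted p = 0.0595) or with limma-voom (-0.41, adjusted p = 0.0542). The limma-voom fit shares the scaling by library totals. Of the T-box paralogs of EOMES, TBR1 did not pass (log2 fold change 1.42, SE 0.59, adjusted p = 0.058) and TBX21 was too low to test. The GATA genes that passed thus all rose and FOXA1 and FOXA2 fell, as did FOXA3 within the limits given, while SOX17 and SOX18 moved in opposite directions.

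**Figure D5:**
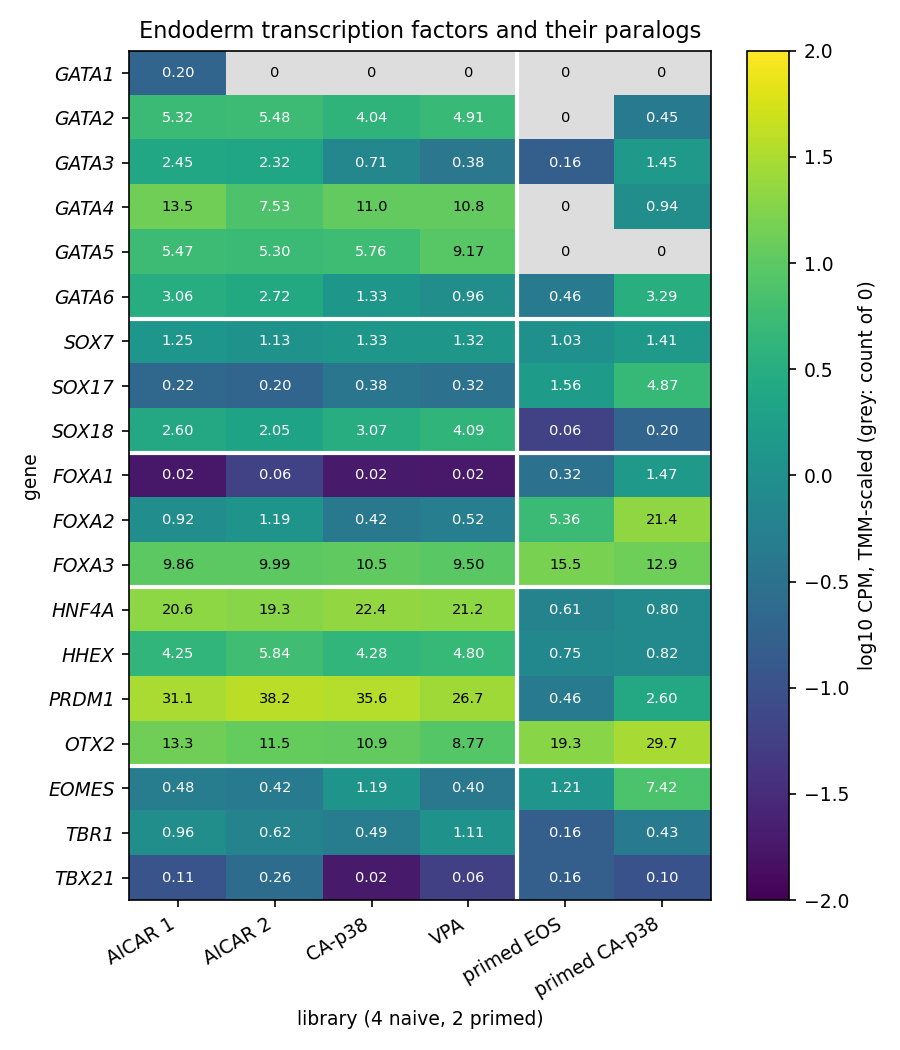
CPM (TMM-scaled, printed in each cell, colour on a log10 scale, grey for a count of 0) of endoderm transcription factors and their paralogs in the 4 naive and 2 primed libraries. GATA2, GATA4, GATA5, SOX18, HNF4A, HHEX and PRDM1 are higher in the 4 naive columns, and SOX17, FOXA1, FOXA2, FOXA3, OTX2 and EOMES are higher in the 2 primed columns.

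Of 9 further endoderm transcription factors, 5 rose, 3 fell and SOX7 did not pass (levels from here on are means ± SD over 4 naive and 2 primed libraries). Over all genes tested, 26.01% rose and 27.04% fell, and the log2 fold change had a median of 0.11. The counts and medians of the gene groups that follow can be read beside these values. Besides GATA5 and SOX18, the rises were HNF4A, a nuclear receptor of visceral endoderm and liver (20.9 ± 1.26 against 0.702 ± 0.135 CPM, log2 fold change 4.89), PRDM1, a repressor with roles in visceral endoderm and germ cells (32.9 ± 5.09 against 1.53 ± 1.51 CPM, 4.43), and HHEX, a homeobox factor of anterior endoderm (4.79 ± 0.743 against 0.783 ± 0.0496 CPM, 2.61). PRDM1 was at 3.65 without primed EOS and 6.15 without primed CA-p38, and SOX18 at 3.82 and 5.56. Besides FOXA1 and FOXA3, OTX2 fell (11.1 ± 1.89 against 24.5 ± 7.39 CPM, log2 fold change -1.14).

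NID2 stood among basement membrane genes of which 7 of 11 fell and 1 rose, with a median log2 fold change of -1.54. Its paralog NID1 fell by 3.46 on the log2 scale, from 139 and 156 CPM to 9.50 to 15.7 CPM. The collagen IV chains COL4A1 (-2.51) and COL4A2 (-2.54), perlecan HSPG2 (-2.79), fibronectin FN1 (-2.12) and the laminin chains LAMB1 (-1.54) and LAMA1 (-1.51) fell too, in log2 fold change. LAMA5, another laminin chain, rose by 1.73 on the log2 scale, from 86.9 and 101 CPM to 281 to 343 CPM. LAMC1, AGRN and SPARC did not pass, with log2 fold changes of 0.01, 0.13 and -0.05. All 8 calls held in all 15 alternatives.

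APOA1 belongs with transport and secreted proteins of visceral endoderm, of which 12 of 14 were high enough to test, 3 rose and 2 fell. The median log2 fold change was -0.18. Since 26.01% of all genes tested rose and 27.04% fell, these counts do not set the list apart. APOE, by far the most abundant, rose from 306 and 350 CPM to 1281 to 1477 CPM (log2 fold change 2.05). The endocytic receptor LRP2 (2.41 ± 1.14 against 0.651 ± 0.0629 CPM, log2 fold change 1.89) and AMN (9.64 ± 2.58 against 3.07 ± 0.687 CPM, 1.65) rose. The adaptor DAB2 (1.24 ± 0.637 against 11.2 ± 0.0359 CPM, -3.17) and the microvillus protein VIL1 (4.68 ± 0.554 against 10.8 ± 1.23 CPM, -1.21) fell. APOA2, APOB, APOM, TTR, AFP, RBP4 and CUBN did not pass, and APOA4 and APOC3 were too low to test. APOA1-AS, whose exons overlap APOA1 on the other strand, had 5 to 13 counts in naive and 22 and 13 in primed libraries (adjusted p = 0.198).

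EOMES and its mesendoderm partners did not move one way: of the 12 genes 4 rose, 5 fell and 3 did not pass, with a median log2 fold change of -1.60. NODAL (127 ± 8.18 against 17.4 ± 4.73 CPM, log2 fold change 2.86), LEFTY2 (104 ± 27.8 against 10.2 ± 1.95 CPM, 3.36), TBXT (2.01 ± 0.352 against 0.388 ± 0.463 CPM, 2.37) and TDGF1 (539 ± 53.3 against 417 ± 41.2 CPM, 0.37) rose. CER1 (0.335 ± 0.256 against 9.23 ± 7.13 CPM, -4.77), LHX1 (0.283 ± 0.171 against 3.44 ± 1.29 CPM, -3.59), CXCR4 (0.282 ± 0.386 against 2.45 ± 0.0227 CPM, -3.10), FGF17 (0.251 ± 0.198 against 2.13 ± 1.79 CPM, -3.08) and LEFTY1 (20.5 ± 5.15 against 67.0 ± 18.8 CPM, -1.71) fell. The nodal antagonists LEFTY1 and LEFTY2 thus moved in opposite directions, with every library of each group on its side. FGF17 was lost without primed CA-p38 (-1.78, adjusted p = 0.126) and TDGF1 without primed EOS (0.26, adjusted p = 0.151). TBXT was at 1.48 without primed EOS and 5.01 without primed CA-p38, CER1 at -5.41 and -3.62 in turn, and CXCR4 at -4.74 without VPA.

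PDGFRA stood beside PDGF ligands and related receptors of which 5 of 7 fell and 1 rose, with a median log2 fold change of -5.32. PDGFA, its main ligand, rose from 49.7 and 56.9 CPM to 72.5 to 93.7 CPM (log2 fold change 0.62, SE 0.13, adjusted p = 0.00114). The other receptor PDGFRB fell from 17.2 and 16.3 CPM to at most 0.181 CPM (-7.40), and its ligands PDGFB (-7.07) and PDGFD (-5.32) fell with it. The related receptors KDR (-5.74) and KIT (-2.20) fell as well. The fall of PDGFRA was thus small beside that of PDGFRB.

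The genes whose pattern over the 6 libraries lay closest to each member were found by Euclidean distance on centred log2 CPM, among the 18070 genes that averaged 1 CPM or more. GATA2 was the closest to GATA4 (distance 1.26), followed by C7orf57 (1.76) and MYBPHL (1.97). Like GATA4, each of these had a count of 0 in primed EOS, where the log2 level is set by a prior count of 0.5. GATA3 was the closest to GATA6 (1.16), followed by RPS4XP8 (1.28) and TEX13C (1.35). The closest to FOXA2 were PKDCC (1.02), NECTIN3 (1.09) and THBS2 (1.12), and those to SOX17 were ACTA1 (0.808), VCAN (0.856) and CLDN1 (0.931). EOMES lay closest to HTR7P1 (1.35), SP5 (1.43) and SOX17 (1.55), the only other member among the neighbours. The closest to PDGFRA were FAM98A (0.184), GFOD1 (0.199) and ABCA11P (0.237), and those to NID2 were TRIQK (0.334), CLYBL (0.348) and THNSL1 (0.390). APOA1 was below 1 CPM and was left out.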

How the data were processed

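Bulk RNA-seq of 6 libraries was analysed, 4 naive and 2 primed. Polyadenylated RNA was made into libraries with a stranded SMART-Seq kit. The authors deposited whole-number counts per Ensembl identifier: reads were trimmed with cutadapt 1.15 through Trim Galore 0.4.4, mapped with Bowtie2 2.2.5 to cDNA and noncoding RNA sequences of Ensembl release 100 (GRCh38) and counted above a mapping-quality limit; whether strand was used is not given in the sources used here. A filter on mapping quality acts on genes with near-identical copies, such as the 2 GATA4 identifiers. Another 23 columns from other studies were not used, and 26 spike-in rows (at most 1 count in a library) were left out.

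Identifiers with the same name were summed. Counts were fitted with edgeR 4.0.16 (R 4.3.3; filterByExpr by state, TMM, glmQLFit and glmQLFTest, Benjamini-Hochberg over 26497 genes, threshold 0.05), on all 6 libraries with state as the only term. Another fit added line and its interaction with state. Scripts were tested on simulated data. DESeq2 1.42.0, limma-voom 3.58.1, other scalings and filters, identifiers fitted apart, a term for line and leaving out each library were tried as alternatives. The limma-voom fit used library totals without TMM. Ratios of single libraries carry 95% Clopper-Pearson intervals, and counts up to 3 were taken as the floor. Totals of 46823699 to 54277064 counts set the precision, which for genes with few counts is counting error. Naive libraries differed from each other well beyond sampling noise, the AICAR pair included (chi-square per gene 21.05 within a range of 19.8 to 35.9). The members and the gene lists were chosen with earlier results of these data known, and 1 further gene of the endoderm transcription factor list is not reported here and is left out of that list's counts. Named genes are all members, list genes past the threshold, and the 3 genes closest in pattern to each member with a mean of at least 1 CPM.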

Additional observations from a re-analysis of the deposited data

Results flagged for a closer look

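Among 102 genes checked, 9 had 1 of the 4 naive libraries far from the others by Dixon's test at the 95% level, which chance passes in about 1 of 20 groups. EOMES was at 1.19 CPM in CA-p38 against 0.401 to 0.479 CPM in the other naive libraries. GATA5 was at 9.17 CPM in VPA against 5.30 to 5.76 CPM, and CXCR4, a chemokine receptor of definitive endoderm, at 0.860 CPM in VPA against 0.0604 to 0.129 CPM. NODAL was at 138.9 CPM in AICAR 2 against 121.5 to 123.4 CPM. GATA1 was at 0.203 CPM in AICAR 1 and VGLL1 at 0.101 CPM in AICAR 2, each with a count of 0 in the other naive libraries. FOXF1 was at 0.442 CPM in AICAR 1 against 0.0396 to 0.0955 CPM. TFCP2L1, a naive marker, was lower in VPA at 102.7 CPM against 123.4 to 126.4 CPM. COL1A1 was at 27.99 CPM in CA-p38 against 9.53 to 11.6 CPM.

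The GATA6 level in naive CA-p38 (1.33 CPM) lay within the range of the EOS-line naive libraries (0.955 to 3.06 CPM). The primed libraries differed, at 3.29 CPM in primed CA-p38 and 0.465 CPM in primed EOS. Against these primed libraries, GATA6 changed in opposite directions in the lines. The log2 ratio was -1.31 in the CA-p38 line and 1.02 to 2.69 in the 3 naive libraries of the EOS line. Tested as an interaction with edgeR, this difference had an adjusted p of 0.9999.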

How the results depend on the processing

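The number of the 8 genes that rose was 0 when only genes with at least 10 counts in every library were kept, since GATA4 has a count of 0 in primed EOS, and 1 to 2 when libraries were left out in turn. The number that fell was 3 to 6 when libraries were left out and 5 to 6 in the other alternatives. GATA6 turned to -0.11 with both AICAR libraries summed and ran from -0.72 to 2.12 when libraries were left out. PDGFRA passed in 5 of 15 alternatives (adjusted p 0.0356 to 0.31). The difference between lines for APOA1 ran from -0.34 to 0.0207 when naive EOS libraries were left out. SOX17, FOXA2 and NID2 passed in all 15 alternatives. Over all results and alternatives, 859 values kept direction and side of the threshold, 22 were weaker, 2 stronger and 5 reversed. All 72 recomputed ratios of single libraries stayed within their counting intervals. The median of all genes shifted from 0.11 to 0.20 on the log2 scale with library totals and to 0.06 with DESeq2 size factors, and no member that passed changed sign under either. The GATA4 value was 6.82 with limma-voom.

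The labels number only the AICAR libraries, so no replicate number pairs naive with primed libraries. The parental line, which ties each naive library to a primed one, was fitted as a term instead, and PDGFRA was then the only gene named from the 8 genes and their lists that lost its call (adjusted p = 0.0848). The limits are 2 primed libraries that differ from each other in 5 of the 8 genes. Other limits are 1 library for 2 of the 3 induction methods, and counts under 100 for most naive values. Feeders and the sort for CD75 and SUSD2 are described on the naive side alone.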

Other observations

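AFP, APOB and APOA2, secreted proteins of yolk sac and liver, were lower in AICAR 1 than in the other naive libraries. AFP had 11 counts in AICAR 1 against 255, 224 and 302 in AICAR 2, CA-p38 and VPA, and APOB had 5 counts in AICAR 1 against 196, 269 and 367. APOA2 had 2 counts in AICAR 1 against 20, 11 and 25, whereas APOA1 had 6 against 9, 8 and 10. In CPM, AFP in the other three naive libraries (4.43 to 5.77 CPM) lay between primed EOS (1.29 CPM) and primed CA-p38 (5.95 CPM), and so did APOB (3.95 to 7.01 CPM against 2.67 and 8.59 CPM).

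Among markers of trophectoderm, the outer layer of the blastocyst, 5 of 7 tested rose in naive libraries and none fell. Of all genes tested, 26.01% rose and 27.04% fell. The median log2 fold change was 1.83 for these markers and 0.11 for all genes. The summed level of the markers was 27.4 to 30.7 CPM in naive against 5.29 and 6.58 CPM in primed libraries. TFAP2A rose from at most 0.0808 CPM to 7.43 to 9.68 CPM and CDX2 from at most 1 count to 62 to 124 counts. Of 5 mesoderm markers tested, HAND1, HAND2 and ISL1 rose and KDR fell, with a median log2 fold change of 3.48. MESP1 did not pass, and 3 of the 8 mesoderm markers were too low to test.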
